A study of Mus musculus with 1073 samples.

Results

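Arterial and venous identity genes are transcripts by which endothelial cells, the lining cells of blood vessels, are told apart as arterial or venous. The set was chosen by name from textbook knowledge of the vasculature and held 8 of the 15967 genes in the filtered expression tables. The 6 arterial members were *Efnb2*, *Gja4*, *Gja5*, *Unc5b*, *Cxcr4* and *Cxcl12*, and the 2 venous members were *Ephb4* and *Nr2f2*. The choice was by name and not by a threshold on any value, but it was made with earlier results of these data known.

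Single cells were sorted from mouse yolk sac between stages E7.25 and E10.5 (E, embryonic day), captured on the Fluidigm C1 microfluidic system and profiled by RNA-seq, and 926 of 1073 captured cells in 13 sorted populations passed the filter of the authors. Endothelial cells (Endo) were sorted as TER119- CD41- CDH5+ at E8.5 (79 of 79 captured cells passed) and as TER119- CD45- CD41- CDH5+ at E10.5 (61 of 80 passed). The populations set beside them were *Flk1*-GFP+ mesodermal cells of E7.25 (73 and 74 cells on 2 sequencing lanes) and E7.75 (140 cells, also on 2 lanes), haematopoietic progenitor cells (HPC) of E8.25 (73 cells), E8.5 (89), E9.5 (46) and E10.5 (87), primitive erythroid cells (EryP) at E8.5 and E10.5 (66 and 3 cells), megakaryocyte lineage cells (Mk) at E8.5 and E10.5 (37 and 73 cells) and macrophages (Mac) at E10.5 (25 cells). The HPC gate was TER119- CDH5+ CD41+ at E8.25 and E8.5, and TER119- CDH5- CD45+ CD41low later, so CDH5, an endothelial surface protein, marked the early progenitors and not the late ones. EryP were CD41- CDH5- TER119+, Mk were TER119- CDH5- CD41+ at E8.5 and TER119- CDH5- CD45- CD41high at E10.5, and Mac were TER119- CDH5- CD41- CD45+. Cells of E7.25 and E7.75 came from *Flk1*-GFP/+ embryos, which carry a fluorescent reporter for the receptor *Flk1* (*Kdr*), and were freed with trypsin. The *Flk1*-GFP line was itself kept on a C57BL/6 background. All later cells were from C57BL/6 yolk sacs and were freed with collagenase and dispase.

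Every value below is a level or a share in 1 sorted population. The labels name neither embryos nor pools, so each population counts as 1 sample, cells are not replicates, and no difference between populations carries a test. Detection meant 1 read count or more. Shares are followed by their exact 95% intervals (Clopper-Pearson), and these express counting error alone. Where no cell held a gene, the share that 3 cells would make is given as its limit. Levels are normalised read counts (CPM) that the authors scaled with scran size factors, and a log2 ratio compares mean CPM + 1. The E8.5 and E10.5 libraries were run on different flow cells, as were those of E7.25 and E7.75, so stage and flow cell cannot be told apart.

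Arteries and veins differ in identity before and after blood flow begins. Vascular endothelial growth factor and Notch signalling favour the arterial state, in which ephrin-B2 (*Efnb2*) is a surface ligand, and the nuclear receptor COUP-TFII (*Nr2f2*) represses that programme in veins, where the receptor EphB4 (*Ephb4*) is its partner. The yolk sac forms its vessels first as a plexus, which is later remodelled into arterial and venous branches as circulation starts.

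The sorted endothelial cells carried their defining transcripts. All 7 endothelial markers examined (*Cdh5*, *Pecam1*, *Kdr*, *Tek*, *Ramp2*, *Plvap* and *Aplnr*) were found in 100% of E8.5 Endo cells and in at least 95.1% of E10.5 Endo cells. Of 9 blood markers, *Itga2b*, which encodes CD41, was the most frequent, in 91.1% of E8.5 and 45.9% of E10.5 Endo cells, although the gate was CD41-. *Pf4* was in 29.1% and 3.28%, *Alas2* in 19.0% and 1.64%, and 11 E8.5 and 2 E10.5 cells held at least 2 of the markers at 10 counts or more. *Gata1*, *Klf1* and *Ptprc* were at 0 in E8.5 Endo, and *Gfi1b*, *Myb*, *Ptprc* and *Csf1r* were at 0 in E10.5 Endo. The summed blood marker level reached 752 CPM at E8.5 (median 26.7) and 693 CPM at E10.5 (median 0), with a lowest value of 0 at both stages. The summed level of the 10 mesenchymal markers ranged from 0 to 1673 CPM in E8.5 Endo (median 63.3) and from 0 to 6441 CPM in E10.5 Endo (median 0). Total counts per cell were 1118365 to 2730963 in E8.5 Endo (median 1874645) and 589064 to 4551690 in E10.5 Endo (median 1943904). No cells had identical counts. In E8.5 EryP, which are red cells, *Efnb2* was detected in 12.1% of 66 cells, *Ephb4* in 3.03%, *Cxcl12* in 1.52% and the other 5 members in none (limit 4.55%), at a median total of 2099060 counts. At 10 counts or more *Efnb2* was in 6 of these cells, and its highest level there was 246 CPM.

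Some libraries carried *Xist* and Y-linked transcripts together. At least 5 counts of *Xist* together with at least 5 counts of 4 Y-linked genes were found in 59 of 79 E8.5 Endo cells (74.7%) and in 26 of 61 E10.5 Endo cells (42.6%). At 50 counts of each, there were 15 (19.0%) and 8 (13.1%) such cells. Low counts were also seen between libraries of 1 lane. The macrophage transcript *C1qb* was found, at no more than 4 counts, in 13 of the 25 captured E10.5 EryP cells that shared a lane with Mac. The erythroid transcript *Hbb-y* was found, with a median of 26 counts, in 41 of 41 captured Mac cells. Whether a library held more than 1 cell, and which low counts came from a neighbouring library, was not tested. Detection in Endo cells is therefore also given at 10 counts or more, and the named pairs are followed by their values without the cells that carried both *Xist* and Y-linked transcripts.

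**Figure D1:**
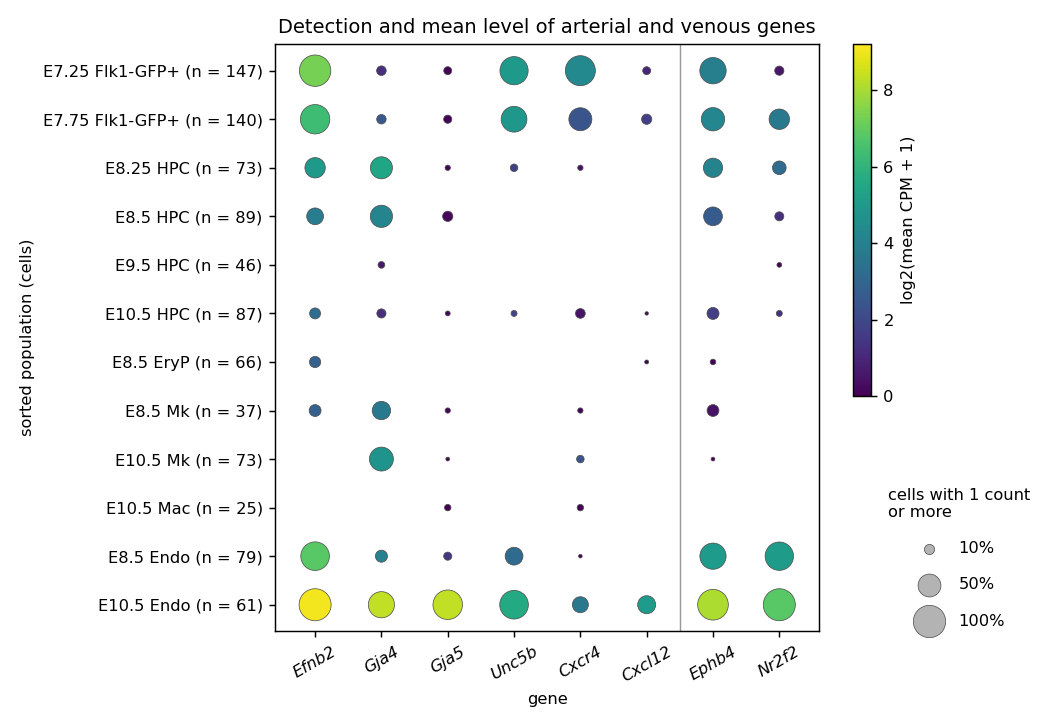
Each column is a gene (arterial members left of the line, venous members right) and each row a sorted population. The area of a dot is the percentage of cells with 1 count or more and its colour the log2 of mean CPM + 1, and no dot means no count. E10.5 EryP is not drawn because 3 cells passed the filter, and all 8 genes were at 0 in them. Only the bottom row, E10.5 Endo, has all 8 genes at a mean of 10 CPM or more.

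*Efnb2* encodes the ephrin-B2 ligand and was the arterial member found in the most endothelial cells at both stages. It was present in 78.5% of E8.5 Endo cells (95% interval 67.8 to 86.9) at 0 to 755 CPM with a median of 37.0 CPM, and in 98.4% of E10.5 Endo cells (91.2 to 100) at 0 to 3036 CPM with a median of 415 CPM. Its mean level was 110 CPM at E8.5 and 519 CPM at E10.5, a log2 ratio of 2.22. Nearly every endothelial cell at E10.5 thus held it, and the ranges of the stages overlapped. It was not confined to endothelium. *Efnb2* was detected in 94.6% of E7.25 and 82.9% of E7.75 *Flk1*-GFP+ cells, at mean levels of 154.7 and 80.8 CPM, and the E7.25 share overlapped the interval of E10.5 Endo. Among progenitors it was found in 39.7% of E8.25 HPC, 27.0% of E8.5 HPC, 0 of 46 E9.5 HPC (limit 6.52%) and 11.5% of E10.5 HPC. It was also in 12.1% of E8.5 EryP and 13.5% of E8.5 Mk, and in 0 of 73 E10.5 Mk. At 10 counts or more *Efnb2* was in 70.9% of E8.5 and 91.8% of E10.5 Endo cells. In *Flk1*-GFP+ cells these shares were 88.4% at E7.25 and 75.7% at E7.75.

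*Gja4* and *Gja5* encode the gap junction proteins connexin 37 and connexin 40, which couple arterial endothelial cells. In E8.5 Endo both were rare. *Gja4* was found in 11 of 79 cells (13.9%, 7.16 to 23.5) with a mean of 15.8 CPM and a highest value of 557 CPM, and without that highest cell the mean was 8.90 CPM. *Gja5* was found in 5 of 79 cells (6.33%, 2.09 to 14.2), and 2 cells, at 96.0 and 35.7 CPM, held nearly all of its 291 counts. Both of these cells also held *Gja4*, at 16.1 and 557 CPM. In E10.5 Endo, *Gja4* was detected in 65.6% of cells (52.3 to 77.3) at 0 to 3584 CPM with a median of 1.04 and a mean of 319 CPM. *Gja5* was detected in 83.6% (71.9 to 91.8) at 0 to 4427 CPM with a median of 6.28 and a mean of 322 CPM. A minority of cells carried most of both, since the 7 highest of the 61 cells held 66.9% of the summed *Gja4* level and 67.6% of the summed *Gja5* level. With the minimum at 10 counts, *Gja4* was in 36.1% and *Gja5* in 47.5% of E10.5 Endo cells. In E8.5 Endo these shares were 10.1% and 2.53%. The log2 ratios of E10.5 over E8.5 were 4.25 for *Gja4* and 6.87 for *Gja5*. Without the cells carrying both *Xist* and Y-linked transcripts, the *Gja4* ratio was 3.52 (E8.5 mean 27.9 CPM) and the *Gja5* ratio 7.26.

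Outside the endothelium the connexins parted. *Gja5* was in no more than 10.1% of the cells of any other population, and its mean level there reached 0.157 CPM at most. *Gja4* was also a transcript of early progenitors and of the megakaryocyte lineage. It was detected in 46.6% of E8.25 HPC (34.8 to 58.6, mean 42.3 CPM), 47.2% of E8.5 HPC (36.5 to 58.1, mean 17.4 CPM), 32.4% of E8.5 Mk (18.0 to 49.8, mean 12.2 CPM) and 54.8% of E10.5 Mk (42.7 to 66.5, mean 26.3 CPM). The intervals of both early HPC and of E10.5 Mk lay above that of E8.5 Endo, and the E10.5 Mk interval overlapped that of E10.5 Endo. When each cell was thinned to 500000 counts, the *Gja4* shares were 42.5% in E8.25 HPC, 40.4% in E8.5 HPC, 21.6% in E8.5 Mk, 53.4% in E10.5 Mk, 11.4% in E8.5 Endo and 52.5% in E10.5 Endo. In later progenitors it was found in 2 of 46 E9.5 HPC and 8.05% of E10.5 HPC.

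The promoters of the connexin genes are shown because these members were high in the same E10.5 cells, and that of *Cxcl12* because it was the only one with a motif match. Each line gives the 250 bases before the first RefSeq transcription start on the gene's own strand, in build GRCm38.p6, at chr4:127314040-127314289 (minus strand), chr3:97032152-97032401 (plus strand) and chr6:117168285-117168534 (plus strand), and capitals mark a motif match. All 8 members had such a promoter. For *Gja5* the start used lies inside the gene span given below, which begins at 96904693. The bases before the start of that span were not searched. Both strands were searched for 5 motifs, none of which contains another. The core of RBPJ, the DNA-binding partner of Notch, is TGGGAA, which 21.6% of 32851 mouse promoters of this length hold. The core bound by SOX factors is AACAAT, which 9.42% of those promoters hold. The element of GATA factors was written as AGATAA and is found in 9.99% of mouse promoters. The element of nuclear receptors was written as AGGTCA and is found in 14.0% of mouse promoters. The element of ETS factors was written as CCGGAAG and is found in 6.91% of mouse promoters. The only match among the 8 members was the RBPJ core in the *Cxcl12* promoter, at -170 from the start on the plus strand.
Gja4: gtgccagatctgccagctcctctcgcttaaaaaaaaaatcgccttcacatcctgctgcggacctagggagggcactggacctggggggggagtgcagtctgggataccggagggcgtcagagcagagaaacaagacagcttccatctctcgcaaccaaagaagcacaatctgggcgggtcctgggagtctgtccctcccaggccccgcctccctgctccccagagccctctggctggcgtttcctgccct
Gja5: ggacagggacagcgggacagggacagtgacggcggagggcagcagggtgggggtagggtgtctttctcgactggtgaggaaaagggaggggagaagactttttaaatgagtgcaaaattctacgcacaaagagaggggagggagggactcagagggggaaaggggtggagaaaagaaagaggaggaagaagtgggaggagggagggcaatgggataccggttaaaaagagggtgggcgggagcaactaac
Cxcl12: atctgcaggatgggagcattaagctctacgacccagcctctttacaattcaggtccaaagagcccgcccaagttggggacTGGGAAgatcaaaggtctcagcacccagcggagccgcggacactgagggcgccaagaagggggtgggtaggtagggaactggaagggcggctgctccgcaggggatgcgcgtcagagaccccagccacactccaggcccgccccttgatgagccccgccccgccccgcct

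*Unc5b* encodes a netrin receptor of arterial and angiogenic endothelium. It was in 30.4% of E8.5 Endo cells (20.5 to 41.8), at 0 to 191 CPM with a median of 0 and a mean of 8.01 CPM. In E10.5 Endo it was in 78.7% of cells (66.3 to 88.1), at 0 to 424 CPM with a median of 13.2 and a mean of 47.3 CPM, and the log2 ratio was 2.42. *Flk1*-GFP+ cells lay between the stages, with 76.2% of E7.25 cells (mean 30.8 CPM) and 63.6% of E7.75 cells (mean 29.3 CPM). At 10 counts or more *Unc5b* was in 16.5% of E8.5 and 59.0% of E10.5 Endo cells. In *Flk1*-GFP+ cells these shares were 55.1% at E7.25 and 47.9% at E7.75. In blood cells *Unc5b* was sparse. It had no count in 7 populations, among them all 89 E8.5 HPC and all 73 E10.5 Mk, and was in 5.48% of E8.25 HPC and 3.45% of E10.5 HPC.

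*Cxcr4* encodes a chemokine receptor and *Cxcl12* its ligand, which take part in arterial assembly and in the homing of blood cells. *Cxcr4* was the only member whose most frequent detection was in mesoderm, with 86.4% of E7.25 *Flk1*-GFP+ cells (79.8 to 91.5, mean 19.0 CPM) and 50.7% of E7.75 cells (42.1 to 59.3, mean 4.35 CPM). It was then near absent from E8.5 Endo, where 1 of 79 cells held it with 9 counts. In E10.5 Endo it was in 24.6% of cells (14.5 to 37.3), at 0 to 243 CPM with a median of 0 and a mean of 11.9 CPM. Without the highest cell that mean was 8.01 CPM. At 10 counts or more *Cxcr4* was in 59.2% of E7.25 and 16.4% of E7.75 *Flk1*-GFP+ cells. The same share was 16.4% in E10.5 Endo and 0 in E8.5 Endo. *Cxcl12* was in 0 of 79 E8.5 Endo cells (limit 3.80%) and in 31.1% of E10.5 Endo cells (19.9 to 44.3) at 0 to 577 CPM with a mean of 31.0 CPM. At 10 counts or more it was in 7 of 61 cells (11.5%). The mean in E10.5 Endo was 1399-fold a floor of 3 counts over the E8.5 group. That floor limits the E8.5 side alone, so the value is not a lower bound where the E10.5 mean is uncertain. Much of the E10.5 level came from cells that also carried both *Xist* and Y-linked transcripts, since without them the mean was 8.58 CPM. *Cxcl12* had no count in 8 of the 13 populations and was otherwise in 6.12% of E7.25 and 10.0% of E7.75 *Flk1*-GFP+ cells and in 1 cell each of E8.5 EryP and E10.5 HPC. Its level over E10.5 Endo cells ran with the summed megakaryocyte markers (Spearman's rho 0.41) and the mesenchymal markers (rho 0.30). Of the megakaryocyte markers *Vwf*, which endothelium also expresses, was in 75.4% of these cells and *Gp9* was at 0. The summed level of the 4 megakaryocyte markers ranged from 0 to 52.4 CPM in E8.5 Endo, with *Gp1bb* and *Gp9* at 0, and from 0 to 1633 CPM in E10.5 Endo. The part of these markers in the result was not tested.

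*Ephb4* encodes the receptor for ephrin-B2 on venous endothelium. It was in 65.8% of E8.5 Endo cells (54.3 to 76.1), at 0 to 432 CPM with a median of 2.55 and a mean of 31.3 CPM, and in 90.2% of E10.5 Endo cells (79.8 to 96.3), at 0 to 10996 CPM with a median of 44.1 and a mean of 265 CPM. A single E10.5 cell decided that mean. It held 9209 *Ephb4* counts, and without it the mean was 86.3 CPM and the log2 ratio of E10.5 over E8.5 was 1.44 in place of 3.04. *Ephb4* was also in 66.7% of E7.25 and 52.1% of E7.75 *Flk1*-GFP+ cells, in 35.6% of E8.25 HPC and in 33.7% of E8.5 HPC. Its share in E8.5 Endo overlapped the intervals of both mesodermal stages, with mean levels of 14.4 CPM at E7.25 and 17.5 CPM at E7.75. At 10 counts or more *Ephb4* was in 44.3% of E8.5 and 65.6% of E10.5 Endo cells. In *Flk1*-GFP+ cells these shares were 44.2% at E7.25 and 32.1% at E7.75.

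*Nr2f2* encodes COUP-TFII, the transcription factor of venous identity. It was in 77.2% of E8.5 Endo cells (66.4 to 85.9), at 0 to 175 CPM with a median of 15.9 and a mean of 32.1 CPM, and in 98.4% of E10.5 Endo cells (91.2 to 100), at 0 to 966 CPM with a median of 27.0 and a mean of 112.5 CPM. The log2 ratio was 1.78, and 2.39 without the cells carrying both *Xist* and Y-linked transcripts. The larger share at E10.5 lay in low counts, because 21 of the 60 positive cells held 1 to 9 counts. Shares at 10 counts or more were 60.8% at E8.5 and 63.9% at E10.5. *Nr2f2* was in 8.16% of E7.25 *Flk1*-GFP+ cells (4.29 to 13.8, mean 0.468 CPM) and 40.0% of E7.75 cells (31.8 to 48.6, mean 12.2 CPM). In progenitors it was found in 17.8% of E8.25 HPC, 7.87% of E8.5 HPC, 2.17% of E9.5 HPC and 3.45% of E10.5 HPC, and it had no count in EryP, Mk or Mac. The exons of *Nr2f2* overlap those of the neighbouring transcript *B130024G19Rik*, those of *Gja5* overlap *Gpr89* and those of *Ephb4* overlap *Zan*. The libraries do not mark strand, so reads of an overlap cannot be told apart.

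**Figure D2:**
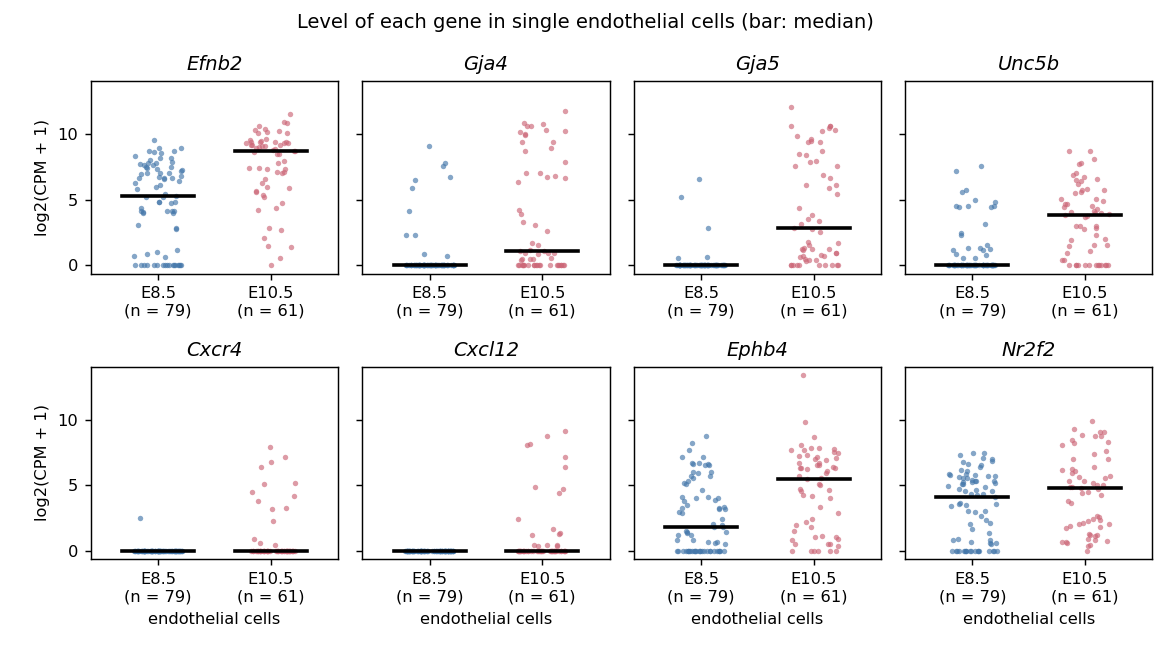
Each point is 1 endothelial cell of E8.5 (79 cells, blue) or E10.5 (61 cells, red), the y axis is log2(CPM + 1) and the bar is the median over cells. Medians were above 0 at both stages only for *Efnb2*, *Ephb4* and *Nr2f2*, and the single *Ephb4* point above the rest is the E10.5 cell at 10996 CPM.

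Per kilobase of exon, the order of the E10.5 Endo mean levels was *Gja4* (190 CPM per kb), *Efnb2* (75.7), *Ephb4* (57.1), *Gja5* (56.0), *Nr2f2* (13.0), *Unc5b* (7.55), *Cxcr4* (6.56) and *Cxcl12* (3.79). *Ephb4* and *Gja5* were close, and without the highest cell of each *Ephb4* was at 18.6 and *Gja5* at 44.1. In E8.5 Endo the order was *Efnb2* (16.1 CPM per kb), *Gja4* (9.40), *Ephb4* (6.74), *Nr2f2* (3.73), *Unc5b* (1.28), *Gja5* (0.306) and *Cxcr4* (0.0334), with *Cxcl12* at 0. The second place of *Gja4* rested on 1 cell, since without the highest cell of each gene *Gja4* was at 5.28 and *Ephb4* at 5.63. In GRCm38, *Efnb2* lies on chromosome 8 from 8617434 to 8661242, *Gja4* on chromosome 4 from 127311421 to 127314039, *Gja5* on chromosome 3 from 96904693 to 97077416 and *Unc5b* on chromosome 10 from 60762593 to 60831581. *Cxcr4* lies on chromosome 1 from 128588199 to 128592293, *Cxcl12* on chromosome 6 from 117168535 to 117181367, *Ephb4* on chromosome 5 from 137350109 to 137378669 and *Nr2f2* on chromosome 7 from 70351944 to 70366735.

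The endothelial stages were then compared for the members together. All 8 members, each with a mean of 10 CPM or more in at least 1 stage, were 2-fold or more higher in E10.5 Endo, which was true of 21.2% of the 9938 genes that met this minimum, and none was 2-fold lower (16.4% of genes). The median log2 ratio was 3.32 over the members, also with *Cxcl12* at its bound, and 0.06 over all genes. The log2 ratios were 6.87 for *Gja5*, 5.00 for *Cxcl12* (whose value rests on the 1 CPM added, since E8.5 was at 0), 4.25 for *Gja4*, 3.60 for *Cxcr4*, 3.04 for *Ephb4*, 2.42 for *Unc5b*, 2.22 for *Efnb2* and 1.78 for *Nr2f2*. Both venous members were thus higher at E10.5 as well as the arterial ones. The share of cells gave the same order of stages after thinning to 500000 counts per cell. *Efnb2* was then in 72.2% of E8.5 and 96.7% of E10.5 Endo cells, *Unc5b* in 26.6% and 67.2%, *Gja5* in 3.80% and 62.3%, *Cxcr4* in 1.27% and 19.7% and *Cxcl12* in 0 and 21.3%. *Ephb4* was then in 55.7% and 75.4%, and *Nr2f2* in 70.9% and 82.0%. When the mean of log2(CPM + 1) over cells was taken in place of the mean CPM, the median over all genes was -0.85, and 7 of 8 members stayed past 2-fold, against 4.17% of genes. *Cxcr4*, at 0.98, did not.

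Within a stage, endothelium was set against the other population with the highest mean of each gene. At E8.5, 4 members had a mean of 10 CPM or more, and 3 of them were 2-fold or more higher in Endo (13.7% of all genes tested). The other population was HPC for each of these, and the log2 ratio was 2.98 for *Efnb2*, 2.37 for *Ephb4* and 3.79 for *Nr2f2*. *Gja4* was the exception (log2 ratio -0.13 against HPC). Against HPC alone, 17.9% of genes were 2-fold or more higher in Endo and 10.4% lower, and no member was lower. At E10.5 all 8 members were 2-fold or more higher in Endo (17.7% of all genes tested), from 1.25 for *Cxcr4* over Mk to 8.12 for *Gja5* over HPC. The *Cxcr4* level in Mk came from 4 of 73 cells, of which 1 had 316 CPM. In mesoderm, 5 members could be compared between E7.75 and E7.25. *Nr2f2* was higher at E7.75 (log2 ratio 3.17, 2-fold or more in 4.92% of all genes) and *Cxcr4* was lower (log2 ratio -1.91, 2-fold or more lower in 5.46%). *Efnb2* was at -0.93, *Unc5b* at -0.07 and *Ephb4* at 0.26. Each of these stages was on 2 lanes, and both E7.75 lanes showed more *Nr2f2* (34.0% and 43.7% of cells) than both E7.25 lanes (8.22% and 8.11%).

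Arterial and venous transcripts were often found in the same endothelial cell. In E8.5 Endo, 41 of 79 cells held both *Efnb2* and *Ephb4* (51.9%, 40.4 to 63.3), and the product of the single shares was 51.7%. In E10.5 Endo it was 55 of 61 cells (90.2%, 79.8 to 96.3), against a product of 88.7%. *Efnb2* and *Nr2f2* were found together in 47 of 79 cells at E8.5 (59.5%, 47.9 to 70.4, product 60.6%) and in 59 of 61 at E10.5 (96.7%, 88.7 to 99.6, product 96.7%). With single shares this near 100% at E10.5, the joint share could hardly depart from the product. At E8.5, where it could, both joint shares over all 79 cells lay within 2 percentage points of it. At least 1 arterial and 1 venous member were in 58 of 79 E8.5 cells (73.4%, 62.3 to 82.7) and in all 61 E10.5 cells (94.1 to 100).

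These shares were lower at 10 counts or more. *Efnb2* with *Ephb4* was in 25 of 79 E8.5 cells (31.6%, product 31.4%) and in 37 of 61 E10.5 cells (60.7%, product 60.2%). *Efnb2* with *Nr2f2* was in 34 of 79 cells (43.0%, product 43.1%) and in 36 of 61 (59.0%, product 58.7%). An arterial with a venous member was in 42 of 79 E8.5 cells (53.2%) and in 48 of 61 E10.5 cells (78.7%). Of the remaining E8.5 cells 17 held arterial members only, 15 venous members only and 5 neither. Of the remaining E10.5 cells 10 held arterial members only and 3 venous members only.

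Leaving out the cells with at least 5 counts of *Xist* and of Y-linked genes left 20 E8.5 and 35 E10.5 cells. *Efnb2* with *Ephb4* was then in 45.0% of E8.5 cells (23.1 to 68.5) and 85.7% of E10.5 cells (69.7 to 95.2), and *Efnb2* with *Nr2f2* in 40.0% (19.1 to 63.9) and 94.3% (80.8 to 99.3). An arterial with a venous member was in 65.0% and 100%. The last shares were, at 10 counts or more, 45.0% (23.1 to 68.5) and 77.1% (59.9 to 89.6). At that minimum *Efnb2* with *Ephb4* was in 25.0% of the 20 E8.5 cells (8.66 to 49.1, product 28.0%). *Efnb2* with *Nr2f2* was also in 25.0% of them (8.66 to 49.1, product 31.5%), so both joint shares lay below the product. In the 35 E10.5 cells the shares were 57.1% (product 56.3%) and 60.0% (product 58.8%). Within the E8.5 cells that carried both *Xist* and Y-linked transcripts, *Efnb2* with *Nr2f2* was in 39 of 59 (66.1%). When the limit was 50 counts of each, *Efnb2* with *Ephb4* was in 46.9% of 64 E8.5 cells and 88.7% of 53 E10.5 cells.

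**Figure D3:**
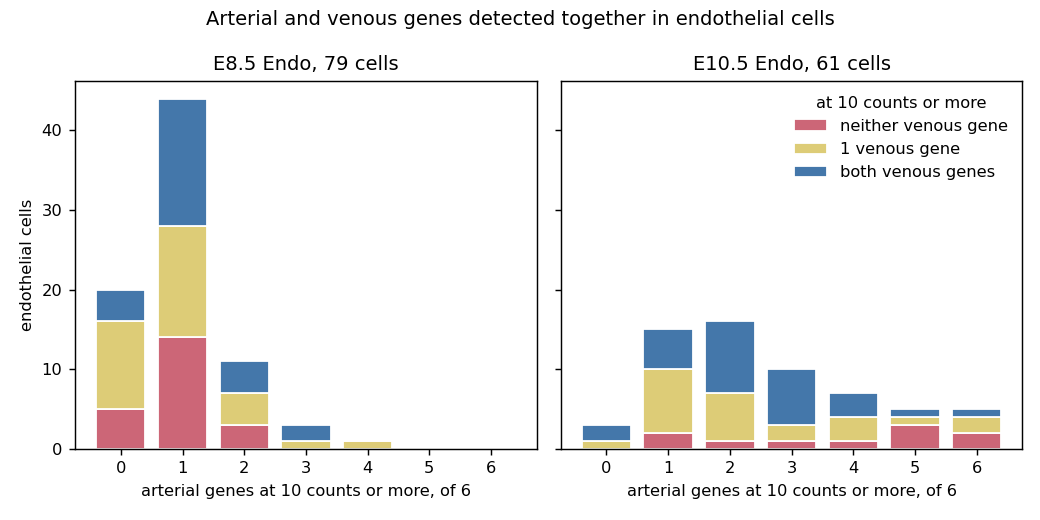
Bars count the endothelial cells (y axis) by how many of the 6 arterial members they held at 10 counts or more (x axis), and colours split each bar by the number of venous members at 10 counts or more. Most E8.5 cells held 0 or 1 arterial member, and the E10.5 cells spread from 0 to 6.

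The E10.5 cells held more arterial members each than the E8.5 cells did. Of 79 E8.5 cells 4, and of 61 E10.5 cells 27, held at least 3 arterial members at 10 counts or more. Of the 27 cells, 12 held both venous members and 7 held neither. Of the 10 E10.5 cells with 5 or 6 arterial members, 5 held no venous member at 10 counts, 3 held 1 and 2 held both. The cell with the most *Gja5* had 3036 CPM of *Efnb2*, 1328 CPM of *Gja4*, 4427 CPM of *Gja5*, 280 CPM of *Unc5b* and 111.3 CPM of *Cxcr4*, beside 0.778 CPM each of *Ephb4* and *Nr2f2*. Another had 3584 CPM of *Gja4* and 1616 CPM of *Gja5* with no *Ephb4* count and 0.82 CPM of *Nr2f2*. A contrasting cell had all 6 arterial members, *Gja4* at 1766 CPM and *Gja5* at 1448 CPM among them, together with 421 CPM of *Ephb4* and 4.34 CPM of *Nr2f2*. At the other end were 3 E10.5 cells with no arterial member at 10 counts, in which *Ephb4* was 203, 80.3 and 33.8 CPM and *Nr2f2* was 1.26, 46.6 and 637 CPM. These cells were picked for their values and are given as examples.

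**Figure D4:**
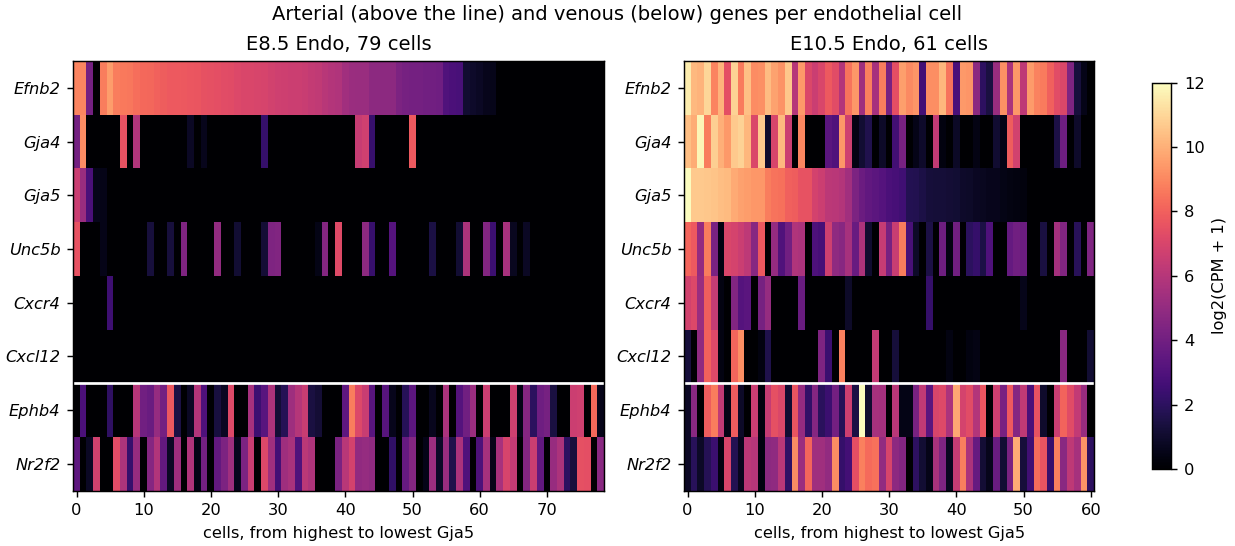
Each column is 1 endothelial cell, ordered from highest to lowest *Gja5* CPM and, among cells without *Gja5*, by *Efnb2*. Rows are the arterial members (above the white line) and venous members (below), and the colour is log2(CPM + 1). In E10.5 Endo the cells with high *Gja4*, *Unc5b*, *Cxcr4* and *Cxcl12* lie mostly at the left with high *Gja5*, whereas *Efnb2* extends across nearly all cells. In E8.5 Endo *Gja5* is confined to 5 cells.

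The arterial members were found together in E10.5 Endo more often than the product of their single shares. This held, at 10 counts or more, for 15 of 15 pairs of arterial members in E10.5 Endo, whereas 10 of 12 arterial and venous pairs were below the product. Without the cells carrying both *Xist* and Y-linked transcripts, 15 of 15 arterial pairs remained above it and 7 of 12 arterial and venous pairs were below it. No share over all gene pairs is set beside these counts, and the 15 arterial pairs are drawn from the same 6 genes. *Gja4* and *Gja5* were found together in 19 of 61 cells (31.1%, 19.9 to 44.3), against a product of 17.1%. *Gja5* was thus in 19 of the 22 cells with *Gja4* and in 10 of the 39 without. In the 35 cells left without those carrying *Xist* and Y-linked transcripts, they were together in 13 (37.1%, product 19.6%). *Cxcr4* was in 10 of the 29 cells with *Gja5* (34.5%, 17.9 to 54.3) and in 0 of the 32 without, and in the 35 cells it was in 6 of 16 and 0 of 19. The receptor and ligand pair *Cxcr4* and *Cxcl12* was found together in 5 of 61 cells (product 1.88%), that is, in 5 of the 10 *Cxcr4* cells and 2 of the other 51. Of the 35 cells 2 held both (product 0.980%).

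Venous members were found with some arterial members less often, though the intervals overlapped. *Ephb4* at 10 counts or more was in 14 of the 29 cells with *Gja5* (48.3%, 29.4 to 67.5) and in 26 of the 32 without (81.2%, 63.6 to 92.8), and in the 35 cells in 9 of 16 and 14 of 19. *Nr2f2* was in 3 of the 10 cells with *Cxcr4* (30.0%, 6.67 to 65.2) and in 36 of the 51 without (70.6%, 56.2 to 82.5), and in the 35 cells in 2 of 6 and 22 of 29. *Ephb4* and *Nr2f2* were together in 28 of 61 cells (45.9%, product 41.9%) and in 17 of the 35 (48.6%, product 45.1%). The pairs above the product among arterial and venous members were *Efnb2* with *Ephb4* and with *Nr2f2*. In E8.5 Endo, where *Cxcr4* and *Cxcl12* had no cell at 10 counts, 6 of 6 arterial pairs and 5 of 8 arterial and venous pairs were above the product, and all of these but *Efnb2* with *Ephb4* rested on 10 cells or fewer. Without the cells carrying both kinds of transcript the E8.5 counts were 3 of 6 and 3 of 8. At 1 count or more, 13 of 15 arterial pairs and 6 of 12 arterial and venous pairs of E10.5 Endo were above it.

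Levels within E10.5 Endo showed the same arrangement. Over the 61 cells, Spearman's rho between CPM values was positive for 15 of 15 pairs of arterial members (0.12 to 0.66, median 0.47) and negative for 10 of 12 arterial and venous pairs (-0.46 to 0.03, median -0.11). The highest values were 0.66 for *Gja4* with *Gja5*, 0.62 for *Gja4* with *Unc5b* and 0.60 for *Gja5* with *Cxcr4*. The lowest were -0.46 for *Nr2f2* with *Cxcr4* and -0.35 for *Nr2f2* with *Cxcl12*, and *Ephb4* with *Nr2f2* was at 0.21. Over the 79 E8.5 Endo cells, 7 of 10 arterial pairs were positive with a median of 0.06, the highest was 0.29 for *Efnb2* with *Gja4*, and *Ephb4* with *Nr2f2* was at 0.23. These are descriptions, as endothelial cells of a stage share 1 sequencing lane, and no share of positive pairs over all genes is set beside them. Rank correlations with the total count of a cell lay between -0.28 and 0.17 for all members and both stages. Without the cells carrying both *Xist* and Y-linked transcripts (35 cells), 15 of 15 arterial pairs were positive with a median of 0.58 and 9 of 12 arterial and venous pairs were negative. In the 20 such E8.5 cells, 4 of 10 arterial pairs were positive with a median of -0.06.

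**Figure D5:**
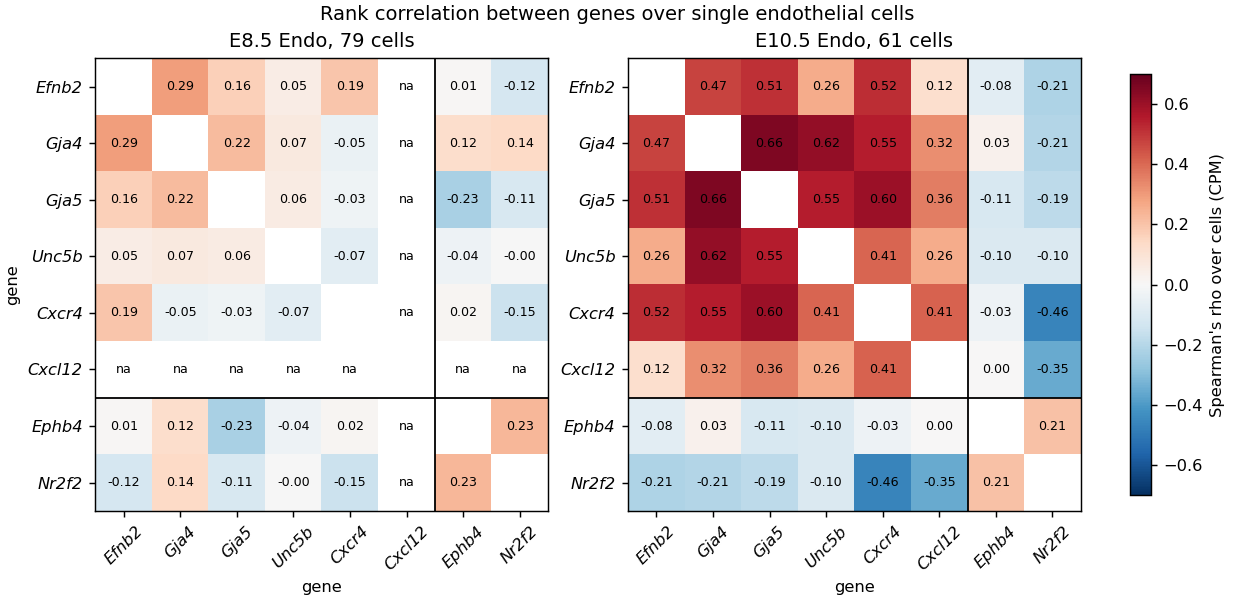
Each square gives Spearman's rho of a pair of genes over the cells of E8.5 Endo (left, 79 cells) or E10.5 Endo (right, 61 cells), red for positive and blue for negative, and lines separate arterial from venous members. In the E10.5 panel the arterial block is red throughout and the *Nr2f2* row is blue against all 6 arterial members. No value exists where a gene had no count (na).

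Other genes of the arterial and venous programmes were examined in the same cells through lists that, like the members, were drawn up with earlier results of these data known. Of 22 further arterial genes, 18 were in the table and 17 met the level minimum. In E10.5 Endo 15 of the 17 were 2-fold or more higher than in E8.5 Endo and none was lower (21.2% and 16.4% of all genes), and the median log2 ratio was 1.90. The largest were *Tmem100* (4.11), a target of ALK1 signalling, and *Vegfc* (3.79), a growth factor for vessels. *Bmx*, a kinase of arterial endothelium, had no count at E8.5 and was in 24.6% of E10.5 Endo cells at a mean of 11.3 CPM. The 2 genes below 2-fold were the Notch target *Hey1* (0.25) and the receptor *Notch1* (0.88). Of 12 further venous genes 8 met the minimum, 4 were 2-fold or more higher and 1 was lower, and the median was 0.96. The higher ones were *Vwf* (5.28), *Emcn* (2.03), *Aplnr* (1.16) and *Flt4* (1.06), and the lower one was the chromatin remodeller *Smarca4* (-1.06). Of 24 ligands, receptors and relatives of the members 11 met the minimum. Of these 11, 4 were higher and 3 lower (21.2% and 16.4% of all genes), with a median of 0.30. *Robo4* (3.25), an endothelial binding partner of Unc5b, the Cxcl12 scavenger *Ackr3* (2.30) and the connexin gene *Gjc1* (2.13) were the highest, and the netrin receptor *Unc5c* (-2.94), *Flrt2* (-1.48), an Unc5 ligand, and the ephrin *Efna5* (-1.41) the lowest.

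The lists were then set against *Gja5*, *Efnb2* and *Nr2f2* within E10.5 Endo. All 14 further arterial genes detected in at least 25% of the cells had a positive rho with *Gja5* (0.06 to 0.66, median 0.31), against 47.0% of 9220 genes, with *Tmem100* at the top. Of the 8 further venous genes 2 had a positive rho with *Gja5*. With *Efnb2* it was positive for 11 of 14 arterial and 2 of 8 venous genes, against 47.3% of all genes. With *Nr2f2* the counts were 1 of 14 arterial and 7 of 8 venous genes, against 48.7% of all genes. In E8.5 Endo, 10 of 13 arterial and 4 of 7 venous genes had a positive rho with *Efnb2* (55.5% of 10692 genes). With *Nr2f2* the E8.5 counts were 7 of 13 arterial and 6 of 7 venous genes (63.0% of all genes). With *Gja5*, detected in 5 E8.5 cells, they were 10 of 13 and 3 of 7 (48.2% of all genes). *Gja1*, which encodes connexin 43 and was present in 100% of endothelial cells at both stages, had a rho of -0.50 with *Gja5* at E10.5, the lowest of all 9220 genes. It was singled out after its values were seen.

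Genes with the most similar pattern over the mean log2(CPM + 1) of the 13 populations were sought among 12324 genes, and Pearson's r is given as a measure of likeness. They were *Tnfrsf10b* and *Gm37297* for *Efnb2* (both 0.96), *Lrrc32* and *Cdc42ep2* for *Gja4* (0.94 and 0.93), *Lama3* and *AU021092* for *Gja5* (both 0.998) and *Hey2* and *Prickle2* for *Unc5b* (both 0.98). For *Cxcr4*, high in mesoderm, they were *Epcam* and *Fst* (0.92 and 0.90), and for *Cxcl12* *Palm3* and *Ccbe1* (0.99 and 0.98). The values for *Gja5* and *Cxcl12* rest largely on E10.5 Endo, where both were far higher than elsewhere. Any gene largely confined to that population would come out near them. The venous members were closest to *Tspan7* and *Sox7* (both 0.98, for *Ephb4*) and to *Itga1* and *Bvht* (0.97 and 0.96, for *Nr2f2*). Over single E10.5 Endo cells, among genes detected in at least 25% of them, the genes closest to *Efnb2* by Spearman's rho were *Gja5* (0.51), *Gja4* (0.47) and *Mkl2* (0.45), while *Cxcr4*, in 24.6% of cells and so below that minimum, was at 0.52. Those closest to *Nr2f2* were *Ccdc50-ps* (0.49), *Cenpi* (0.45) and *Lbp* (0.44). In E8.5 Endo they were *Gm15487*, *Gtpbp8* and *Mecom* (each 0.40) for *Efnb2*, and *Rad50* (0.43), *Igsf3* (0.42) and *Glmn* (0.41) for *Nr2f2*. The 99th percentile of rho over all genes was 0.29 to 0.31 in these comparisons. Because the genes were picked as the highest values, a fall at the other stage carries no result. At E10.5 *Mecom* was at 0.44 with *Efnb2*, *Gm15487* at 0.14 and *Gtpbp8* at 0.11. The 3 genes closest to *Nr2f2* at E8.5 were between -0.09 and 0.06 at E10.5. Those closest to it at E10.5 were between -0.07 and 0.05 at E8.5.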

How the data were processed

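Single yolk sac cells were captured on Fluidigm C1 chips, converted to Nextera XT libraries, which do not mark strand, and sequenced as paired 100-base reads on a HiSeq instrument. The authors aligned reads to GRCm38 with Subread, counted them per Ensembl 84 gene with featureCounts and filtered cells and genes with scater. Tool versions are not given in the sources used here. Per the labels and file columns, the deposited tables held read counts per gene (15967 genes in 926 cells after the filter, 47643 genes in 1073 cells before it) and a signal table of CPM that the authors scaled with scran size factors. The CPM of a cell therefore summed to 699615 to 4176737. Total counts per cell were 483830 to 5943204. No column of values was left unmapped.

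Populations were taken from the labels. Stages follow the sample titles, in which the cell names give a later stage for the E7.25 *Flk1*-GFP+ cells and the E8.25 HPC. The titles call the HPC erythro-myeloid progenitors. Each was treated as 1 sample, and no test was made. Means, medians and shares were computed with Python 3.11.15, numpy 2.4.6, pandas 2.3.3 and scipy 1.17.1, and plotted with matplotlib 3.10.9. The log2 ratio compared mean CPM + 1, and a gene was counted as past 2-fold where its mean reached 10 CPM in either group. On simulated counts for E10.5 over E8.5 Endo (4077 genes), 99.5% of 200 changed genes came out within 0.5 of the set log2 ratio. The simulation set changes only in genes above a minimum level at E8.5, which *Efnb2* alone of the members reached. Whether the ratios of the 8 members are as close was not tested. The E10.5 Endo mean of *Ephb4* was 265 CPM, and 86.3 CPM without its highest cell. Gene coordinates were those of GENCODE M21 (GRCm38) and promoters those of RefSeq (GRCm38.p6), which held 8 of 8 members. The members, the wider lists and the tests were chosen with earlier results of these data known. Genes named beyond the members were, by rule, the 3 with the largest change in each direction of each wider list, the 2 nearest to each member over populations and the 3 nearest to *Efnb2* and *Nr2f2* over cells. Where a list had 5 or fewer genes past or below 2-fold, others of these were also named after their values were seen, as was *Gja1*.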

Additional observations from a re-analysis of the deposited data

How the results depend on the processing

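No paired analysis was possible because the results come from no test and the numbers in the labels only name cells. *Efnb2* with *Ephb4* was in 31.6% of E8.5 and 60.7% of E10.5 Endo cells at 10 counts or more, and in 73.8% at E10.5 after thinning to 500000 counts. *Efnb2* with *Nr2f2* was in 43.0% and 59.0% at 10 counts or more, in 78.7% at E10.5 after thinning, and in 40.0% at E8.5 without the cells carrying *Xist* and Y-linked transcripts. An arterial with a venous member was in 53.2% and 78.7% at 10 counts or more, and in 62.0% and 90.2% after thinning. With a minimum mean of 100 CPM, 5 members remained to be compared between the stages, and all 5 were 2-fold or more higher at E10.5 (16.7% of all genes). Of the values under alternatives, 16 of 72 log2 ratios, 36 of 344 mean levels, 62 of 448 shares of cells, 1 of 22 counts of members and 11 of 48 co-detection shares moved beyond their interval, spread or 1.5 times. None of the log2 ratios changed direction. Between the endothelial stages *Gja4* was at a log2 ratio of 3.52 and *Cxcl12* at a log2 ratio of 3.26 without the cells carrying *Xist* and Y-linked transcripts and *Ephb4* at 1.79. *Ephb4* was at 1.44 without its highest cell, an alternative chosen after seeing the data, as were those on cells whose CPM sum was high, on 50 counts of *Xist* and Y-linked genes on rank correlations, on pairs of members without those cells and on levels per kilobase. Against the highest other population at E10.5, 7 of 8 members were past 2-fold with 10 CPM added (14.0% of all genes) or with the mean of log values (8.12%), *Cxcr4* being the exception. The cause was not tested.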
